A study of Rattus norvegicus with 6 samples.

Results

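Gas1, the cell surface co-receptors Cdon and Boc, the receptor Ptch1, the decoy receptor Hhip, the transducer Smo and the transcription factors Gli1, Gli2 and Gli3 were followed in RNA-seq libraries of the rat vestibular sensory epithelium, the balance organs' tissue, whose sensory cells are the hair cells (HCs). These 9 genes were taken by symbol from a table of 32883 genes, and all 9 had a row and were tested. Gas1 was chosen by its fold change between these same groups, as one of the strongest rises, so its values are described with no test, and the other 8 were included for their place in the pathway. The animals were Long-Evans rats, 3 injected with the vehicle PBS alone (Control) and 3 injected once a day with the aminoglycoside antibiotic streptomycin at 500 mg/kg (STREP), for 6 weeks from postnatal day 21, with 2 males and 1 female in each group. For each animal the utricles and cristae of both ears were pooled into 1 library, so the values are those of whole epithelium and a smaller number of cells of a type cannot be told apart from less RNA per cell.

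Hedgehog proteins are secreted, lipid-modified signals. In their absence Ptch1 holds Smo inactive, and when a ligand binds Ptch1, Smo is released, moves into the primary cilium and turns the Gli factors from repressors into activators. Cdon, Boc and Gas1 present the ligand to Ptch1, whereas Hhip takes it up without signalling. Gli1, Ptch1 and Hhip are themselves induced by the pathway in many tissues and are read as signs of its activity. In the ear, hedgehog signals from the ventral midline pattern the otic vesicle. Gas1 is held on the cell surface by a lipid (GPI) anchor, resembles the receptors of the GDNF family, and was first isolated as a gene of growth-arrested fibroblasts.

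The Ptch1 promoter is shown because it carries the letters of the best known Gli binding site, and the Hhip promoter because Hhip is the other feedback receptor among the members. Promoter windows from RefSeq (GRCr8) were at hand for 7 of the 9 members, all but Gas1 and Gli1. The letters searched were GACCACCCA, on both strands. They were found in 1 of the 7 windows and in 0.385% of all 33469 windows of 300 bases. Each sequence below is the 250 bases before the transcription start, 5′ to 3′ on the gene's strand (+ for both genes), with the match in capitals. In the Ptch1 window (chr17:1555321-1555570) the match lay on the reverse strand, as TGGGTGGTC, 172 to 164 bases upstream of the start. In the Hhip window (chr19:44767788-44768037) these letters were not found. These windows are those of the RefSeq build, which is not the build of the counts.
Ptch1: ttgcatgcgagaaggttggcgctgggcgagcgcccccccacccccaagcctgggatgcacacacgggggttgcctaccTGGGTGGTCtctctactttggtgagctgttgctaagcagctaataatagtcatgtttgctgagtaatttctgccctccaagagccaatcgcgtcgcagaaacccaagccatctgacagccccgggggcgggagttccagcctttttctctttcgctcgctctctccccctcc
Hhip: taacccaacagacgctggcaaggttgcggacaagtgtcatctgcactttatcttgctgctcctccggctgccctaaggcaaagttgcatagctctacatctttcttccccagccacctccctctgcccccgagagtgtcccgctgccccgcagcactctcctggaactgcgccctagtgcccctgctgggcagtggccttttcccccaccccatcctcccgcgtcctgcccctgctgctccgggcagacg

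Library totals ran from 48568191 to 59906048 counts in Control and from 29333584 to 33744909 counts in STREP animals, so depth separated the groups completely. Levels are given as normalised counts, the counts divided by the DESeq2 size factor of the library. No transcript lengths were used here, so levels are compared between libraries and not between genes. Changes are log2 fold changes of STREP over Control with their standard errors (SE). A gene was called when its DESeq2 p-value, adjusted over all genes tested, was under 0.05 and its fold change exceeded 1.5 in either direction. This rule called 527 of 16250 genes tested, or 3.24%, of which 304 (1.87%) were higher and 223 (1.37%) lower in STREP animals.

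Gas1 (ENSRNOG00000050485) had 177, 53.6 and 92.9 normalised counts in the Control animals (replicates 1, 2 and 3 in that order, here and below), and 554, 636 and 483 in the STREP animals. The lowest STREP value lay above the highest Control value, and the Control animals differed among themselves more, in proportion, than the STREP animals did. The separation was already there in the counts before scaling, with 289, 63 and 108 counts in the Control libraries against 416, 589 and 323 in the STREP libraries, although the latter were the shallower. The group means were 108 ± 63.3 and 558 ± 76.4 normalised counts (SD, n = 3). The log2 fold change was 2.36 ± 0.38 (SE), a fold of 5.15. These values are those by which Gas1 was chosen, so they are a description. Among the 272 genes called higher whose normalised count averaged 100 or more, Gas1 ranked 4 by fold change, between Fkbp5 (2.65) and Chac1 (2.26). With each animal left out in turn the log2 fold change ran from 2.04, without Control replicate 2, to 2.93, without Control replicate 1.

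**Figure D1:**
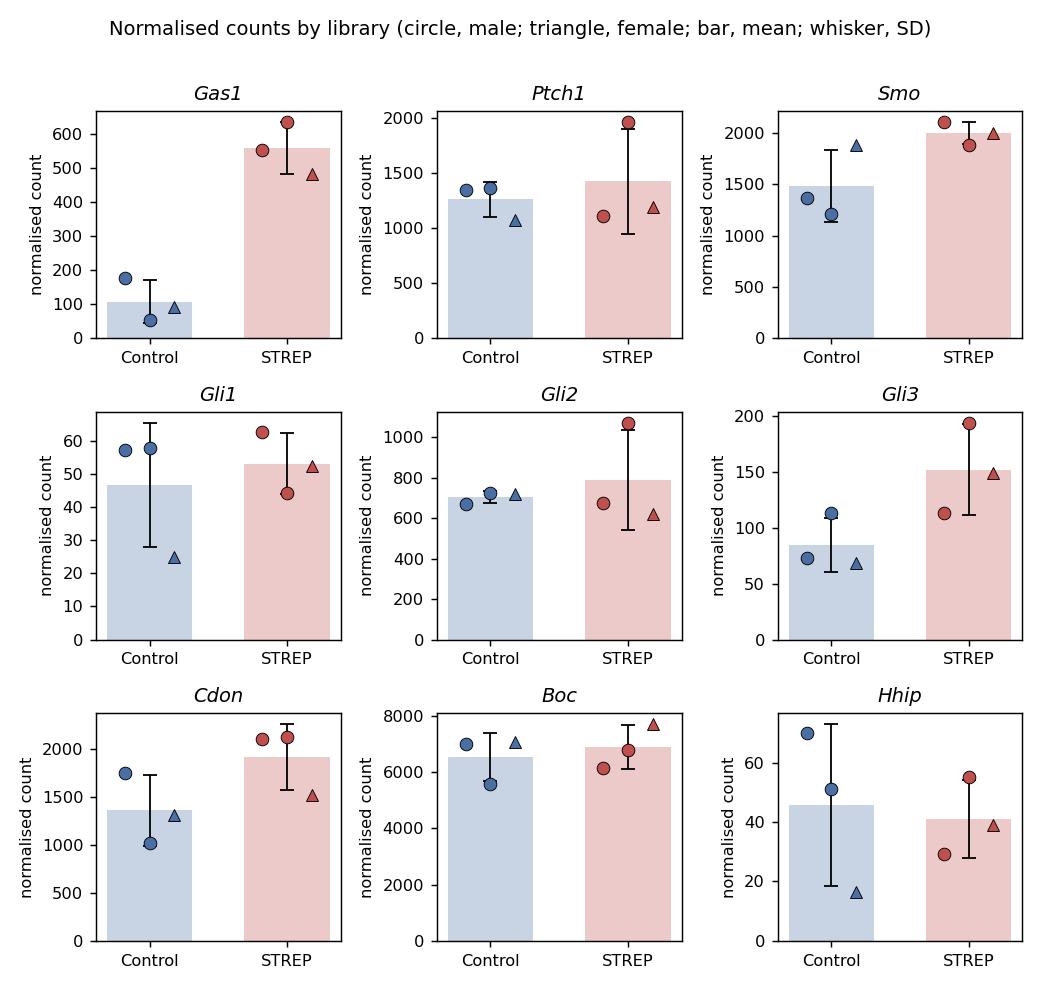
Normalised counts (vertical axes, from 0, a scale per gene) of the 9 genes in the 3 Control and 3 STREP libraries, with circles for males, triangles for females, bars for group means and whiskers for the SD. Gas1 runs from 53.6 to 177 in Control and from 483 to 636 in STREP animals, whereas Ptch1, Gli1, Gli2, Boc, Cdon and Hhip overlap between groups.

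None of the other 8 members was called, where 3.24% of all genes tested were. At an unadjusted p under 0.05 there were 3 of them (Smo, Gli3 and Cdon), and 12.2% of all genes; edgeR called 0 of the 8 as well. Their median log2 fold change was 0.18, and that of all genes tested was 0.0069. The values of 7 of the 8 were above 0, against 51.0% of all genes tested. The 3 Control and 3 STREP values did not overlap for 2 of the 8, Smo and Gli3, both higher in STREP animals, where 17.8% of all genes had no overlap and 9.12% had none with STREP higher, and in both the gap was narrow.

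The other co-receptors showed no call. Cdon, an immunoglobulin superfamily protein, had 1753, 1020 and 1317 normalised counts in Control and 2106, 2127 and 1524 in STREP animals. The groups overlapped, since STREP replicate 3, the female, lay below Control replicate 1. The log2 fold change of Cdon was 0.49 ± 0.23 (SE, DESeq2 adjusted p = 0.308), with a 95% interval of the difference from 0.051 to 0.94. Boc, a paralogue of Cdon, had 6980, 5566 and 7048 normalised counts in Control and 6139, 6783 and 7704 in STREP animals. The Boc values were interleaved, and the log2 fold change was 0.074 ± 0.15 (SE, DESeq2 adjusted p = 0.952; 95% interval -0.23 to 0.38).

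Set against the other co-receptors within each library, Gas1 was again the gene that separated the groups. There were 10.1, 5.25 and 7.05 Gas1 normalised counts for every 100 of Cdon in Control animals, and 26.3, 29.9 and 31.7 in STREP animals. Per 100 of Boc there were 2.54, 0.962 and 1.32 in Control and 9.02, 9.38 and 6.27 in STREP animals. Neither ratio overlapped between groups, a description that rests on the choice of Gas1. The Control animal highest in Gas1 was also highest in Cdon and the one lowest in Gas1 was lowest in Cdon.

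At the level of reception, the data showed no called difference. Ptch1, the ligand receptor and a target of the pathway, had 1349, 1360 and 1078 normalised counts in Control and 1108, 1966 and 1195 in STREP animals. A single STREP animal, replicate 2, lay above all Control animals, and the others lay within or near their range. The log2 fold change of Ptch1 was 0.17 ± 0.24 (SE, DESeq2 adjusted p = 0.895; 95% interval -0.29 to 0.63), and it was -0.14 without STREP replicate 2. Hhip, which sequesters the ligands, was low, at 70.0, 51.0 and 16.3 normalised counts in Control and 29.3, 55.1 and 38.9 in STREP animals. The change of Hhip was -0.16 ± 0.67 on the log2 scale (adjusted p = 0.980 in DESeq2). Its 95% interval ran from -1.47 to 1.16, so the data were compatible with a rise or a fall of Hhip within these limits.

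Smo, the membrane protein that Ptch1 inhibits, had 1369, 1208 and 1882 normalised counts in Control and 2110, 1887 and 2002 in STREP animals. The STREP values were higher in 3 of 3 animals, but the lowest of them exceeded Control replicate 3, the female, by a few counts only. The log2 fold change of Smo was 0.43 ± 0.19 (SE, DESeq2 adjusted p = 0.285; 95% interval 0.053 to 0.80). The lack of a call depended on that library. Smo was called higher without Control replicate 3 (0.63, DESeq2 adjusted p = 0.00735) and among the males alone (0.63, DESeq2 adjusted p = 0.0491).

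Of the Gli factors, Gli1, the activator induced by the pathway, had 57.1, 57.8 and 24.9 normalised counts in Control and 62.6, 44.3 and 52.4 in STREP animals. The Control female was lowest and the other values ran from 44.3 to 62.6, and the log2 fold change was 0.18 ± 0.55 (SE, DESeq2 adjusted p = 0.973; 95% interval -0.90 to 1.27). Gli2, the main activator, had 668, 723 and 721 normalised counts in Control and 676, 1071 and 619 in STREP animals. The higher STREP mean of Gli2 came from replicate 2, and its change of 0.17 ± 0.24 on the log2 scale (adjusted p = 0.903 in DESeq2; 95% interval -0.30 to 0.63) turned to -0.12 without that animal. Gli3, the main repressor, had 73.0, 113.1 and 68.8 normalised counts in Control and 113.2, 194 and 149.6 in STREP animals. It had the highest log2 fold change of the 8, 0.85 ± 0.39 (SE, DESeq2 adjusted p = 0.320; 95% interval 0.077 to 1.62), with STREP replicate 1 level with Control replicate 2.

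STREP replicate 2 held the highest value of the 6 libraries for 5 of the 9 genes, among them Gas1, Ptch1, Gli2, Gli3 and Cdon. Control replicates 2 and 3 held the lowest value for 4 genes each. Gas1 was higher in STREP animals within each sex, which was fixed in advance, since its groups did not overlap. The folds by sex are a description of the values by which Gas1 was chosen. In males the Gas1 means were 115 and 595 normalised counts in Control and STREP animals, 5.15 times higher, and in the single pair of females the values were 92.9 and 483, 5.20 times higher. The log2 fold change of females minus that of males, from an interaction of sex and group in DESeq2, was 0.021 ± 0.84 for Gas1 (SE, adjusted p = 0.999; 95% interval -1.62 to 1.66). Hhip had no DESeq2 adjusted p for this interaction, so it could not pass. None of the other members had one under 0.05, where 0.259% of 13134 genes did. The lowest unadjusted p among them was 0.118 (Smo, DESeq2 fit across all genes), and edgeR's adjusted p was also above the threshold for each. Smo was 1.55 times higher in STREP males and 1.06 times higher in the STREP female, a difference of -0.54 ± 0.35 (SE, DESeq2 adjusted p = 0.999). Each group held 1 female, so differences between the sexes rest on a single pair of animals.

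The rest of the pathway was read from lists of ligands, ligand processing, other surface proteins, transduction and targets, with 38 symbols, of which 36 had a row and 34 were tested. Of these, 0 were called higher and 2 lower, where 1.87% and 1.37% of all genes were. The median log2 fold change of the 34 genes was 0.022, and 19 were above 0.

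Of the ligands, Shh had 0 counts in all 6 libraries, which allows up to 3 counts, or from 0.0501 CPM in the deepest library to 0.102 CPM in the shallowest, for counting error only. Ihh had 8.59, 6.80 and 0 normalised counts in Control and 0, 36.7 and 0 in STREP animals, so its STREP mean came from 1 animal. Dhh, the ligand that Schwann cells are known to make, was the ligand present throughout, with 1031, 957 and 826 normalised counts in Control and 923, 774 and 796 in STREP animals. The Dhh groups overlapped (log2 fold change -0.18 ± 0.18, SE, DESeq2 adjusted p = 0.823; 95% interval -0.53 to 0.17). The proteins that lipidate and release the ligands were not called, with log2 fold changes of 0.015 for Disp1, 0.57 for Scube2 and -0.20 for Hhat.

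Among the other surface proteins, Lrp2 (megalin), a large endocytic receptor that binds hedgehog ligands and takes up many other proteins, fell. It had 51167, 34237 and 40320 normalised counts in Control and 24551, 27483 and 16287 in STREP animals. All STREP values lay below all Control values, and the log2 fold change of Lrp2 was -0.88 ± 0.21 (SE, DESeq2 adjusted p = 0.00167). The call was lost without Control replicate 1 (-0.72, DESeq2 adjusted p = 0.0598) and with edgeR and a count filter (-0.88, edgeR adjusted p = 0.130), with which 0 genes of the wider list were called. The summed dark cell markers also separated the groups, from 46007 to 51489 normalised counts in Control and from 31988 to 38877 in STREP animals. Of the 5, 0 were called, where 3.24% of all genes were, and none was at 0 counts. Slc12a2 (-0.55) and Atp1b2 (-0.36) made up most of this sum. Slc12a2 passed the adjusted p (0.0035 in DESeq2) but not the fold threshold. Kcne1 (-0.79), Kcnq1 (-0.41) and Bsnd (0.055) overlapped between groups. These log2 fold changes are given after their values were seen. The part of the dark cell markers in the fall of Lrp2 was not tested. Gpc3, a glypican, had a log2 fold change of 0.0058 and was not called.

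None of the 17 regulators between Smo and the Gli factors was called with DESeq2 or edgeR, and 1 had an unadjusted p under 0.05, where DESeq2 called 3.24% of all genes and 12.2% had such a p. The most abundant by counts were Prkar1a, a regulatory subunit of protein kinase A, Spop, an adaptor for Gli degradation, and Csnk1a1, a kinase of the Gli factors. Their log2 fold changes were -0.16, -0.30 and 0.29.

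Of the genes known as hedgehog targets in other tissues, 8 were tested, 6 had negative values and the median log2 fold change was -0.39. At an unadjusted DESeq2 p under 0.05 there were 3 of the 8, beside 12.2% of all genes. Between groups 4 did not overlap, beside 17.8% of all genes. Ccnd2, a D-type cyclin, had 2844, 3022 and 2899.9 normalised counts in Control and 2323, 1831 and 1632 in STREP animals. The groups did not overlap, and the log2 change of Ccnd2 was -0.60 (SE 0.17; adjusted p = 0.0126 in DESeq2). This change lay close to the fold threshold, and the call was kept in 1 of the 6 fits that left out an animal, the fit without STREP replicate 1. It was also lost with edgeR and a count filter (-0.60, edgeR adjusted p = 0.0764). Ccnd1, its paralogue, stood at -0.75 ± 0.25 on the log2 scale (adjusted p = 0.0699 in DESeq2) and was called lower without Control replicate 3 or STREP replicate 1. Igfbp6, an IGF binding protein, had a value of -0.43 and was not called. These genes have inputs other than hedgehog signals.

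**Figure D2:**
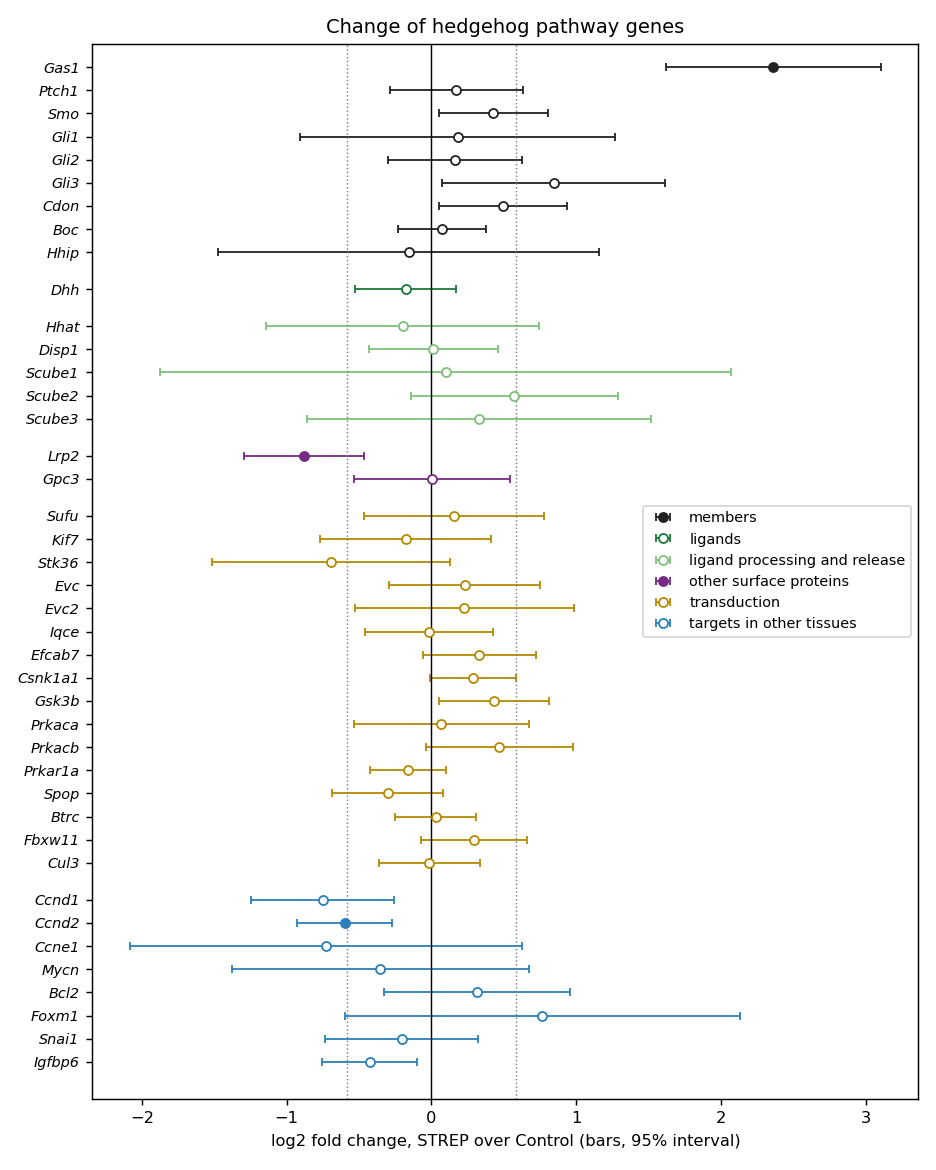
Log2 fold change of STREP over Control (horizontal axis) for the 41 genes of the members and pathway lists averaging 20 or more normalised counts, coloured by role, with bars for the 95% interval. Filled points were called, and dotted lines mark the fold threshold of 1.5. Gas1 (2.36) stands to the right, and the other filled points are Lrp2 (-0.88) and Ccnd2 (-0.60).

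Gas1 resembles the GDNF family receptors. Of 10 symbols of this family, 9 had a row, 6 were tested and 0 were called with DESeq2 or edgeR, with 1 at an unadjusted p under 0.05, beside the same 3.24% and 12.2% of all genes. Artn, Nrtn and Gfra2, the most abundant by counts, had log2 fold changes of -0.38, 0.50 and -0.0092.

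Of 13 genes with a row on the list named for growth arrest, 1 was called higher and 0 lower, where 3.24% of all genes were called. At an unadjusted DESeq2 p under 0.05 there were 5 of the 13, beside 12.2% of all genes. Between groups 6 did not overlap, beside 17.8% of all genes. Of the 13, 6 were above 0 and 7 below. Cdkn1c, an inhibitor of cyclin-dependent kinases, had 2883, 1682 and 3038 normalised counts in Control and 5816, 5406 and 8147 in STREP animals. The lowest STREP value was above the highest Control value, and Cdkn1c rose, with a log2 change of 1.35 ± 0.23 (adjusted p = 1.49e-06 in DESeq2). Gas2 and Pmp22, isolated with Gas1 as growth arrest genes, had log2 fold changes of 0.12 and -0.29 and were not called. Gas6 (0.54) and Gadd45a (-0.56), chosen here after their values were seen, passed the adjusted p but not the fold threshold.

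Markers of the cell types in the dissected tissue were set beside Gas1. The share of all genes called, 3.24%, stands beside each count of called markers here. Lists this short can hold none at that share. Of the 14 fibroblast and mesenchyme markers, 0 were called. Their summed level without Coch, which alone made up most of the sum, ran from 47409 to 51614 normalised counts in Control and from 39455 to 51383 in STREP animals, with none at 0 counts. With Coch the STREP sum was 1.04 times the Control sum, and the groups again overlapped. Otos (-0.14) was the largest part of the sum without Coch. Of the 14, 7 were above 0 and 7 below. At an unadjusted DESeq2 p under 0.05 there were 4, beside 12.2% of all genes. Between groups 3 did not overlap, beside 17.8% of all genes. Of these 3, Postn (1.24) and Tbx18 (0.38) were higher and Dpt (-1.01) lower in STREP animals. These genes and Otos are named after their values were seen. The sums of endothelial, mural and macrophage markers also overlapped between groups, with 0 called in each list. The STREP sums of these lists were 1.03, 0.973 and 1.13 times the Control sums, and that of the fibroblast markers without Coch was 0.936 times. The summed neuron markers were lower in all STREP animals (2815 to 3095 against 3212 to 3772, with 0 of 5 called). HC markers ran from 55059 to 61246 in Control and from 49259 to 59093 in STREP animals. Otof (-0.17), named after its values were seen, was the largest part of the sum. Of the 8, 6 were below 0 and the median log2 fold change was -0.19. Against that direction, Gfi1, a HC transcription factor, was called higher (1.20 ± 0.21, SE, DESeq2 adjusted p = 2.37e-06). Myo7a (-0.49) and Lhfpl5 (-0.45), named after their values were seen, passed the adjusted p but not the fold threshold. The 8 supporting cell markers had 0 called, and their sums ran from 229594 to 315460 in Control and from 217243 to 386902 in STREP animals. Schwann cell markers summed to between 188538 and 250175 in Control and between 104787 and 205851 in STREP animals, lowest in STREP replicate 2. Of these, named after their values were seen, Sox10 was called higher (0.95) and Prx lower (-0.68). The Prx call was lost with edgeR and a count filter (edgeR adjusted p = 0.198), with library totals as size factors, among males alone and in each fit that left out an animal other than STREP replicate 1. Melanocyte markers had 0 called, and their sums overlapped, but Pmel made up nearly the whole sum (0.29), and Tyr, Tyrp1 and Mlana, given here after their values were seen, had log2 fold changes of -1.06, -1.25 and -0.96. The cell type that gives the Gas1 transcripts was not tested.

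**Figure D3:**
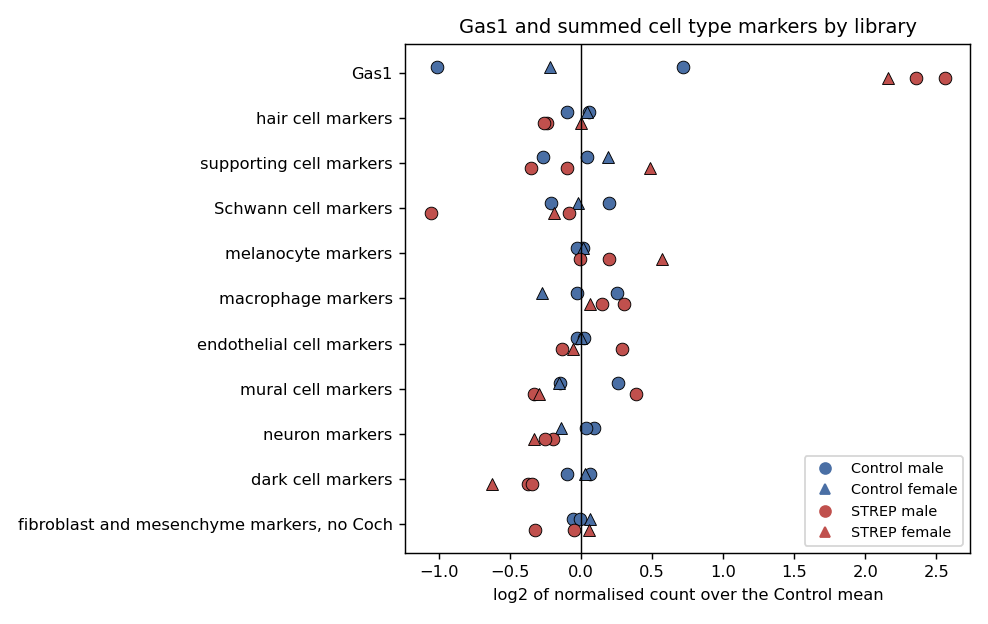
Gas1 and the summed markers of 10 cell types in each library, as log2 of the normalised count over the Control mean (horizontal axis), in blue for Control and red for STREP animals, with circles for males and triangles for females. Gas1 is the row with a gap between the groups well to the right, and the fibroblast and mesenchyme sum (without Coch) runs from 39455 to 51383 in STREP against 47409 to 51614 in Control animals.

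The genes whose pattern was most like that of Gas1 over the 6 libraries, among 12130 genes averaging 100 or more normalised counts, were Psme3, Pdcd4, RGD1559896, Ephb1 and Midn, with Pearson r on log2(normalised count + 1) between 0.990 and 0.993. Psme3, a proteasome activator subunit, had 2281, 1055 and 1805 normalised counts in Control and 5047, 5294 and 4198 in STREP animals. It shared with Gas1 the order of the Control animals (replicate 1 highest, replicate 2 lowest) and of the STREP animals (replicate 2 highest, replicate 3 lowest). Psme3 was picked for its r with Gas1 over these 6 libraries, so the shared order is a description. Such correlations share the libraries, their depth and the group difference. Ranking by deviations from the group means instead gave Heg1, Parp1, Traf3, Rreb1 and LOC100294508, with r between 0.991 and 0.999 and log2 fold changes from -0.045 to 0.070. Gli1 and Hhip averaged under 100 normalised counts and were not compared. Among the other members, Cdon was nearest to Gas1 by both measures, with r of 0.881 over all libraries (rank 401 of 12130) and 0.911 for deviations (rank 224). Ptch1 had r of 0.275 and Gli2 0.250 over all libraries.

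**Figure D4:**
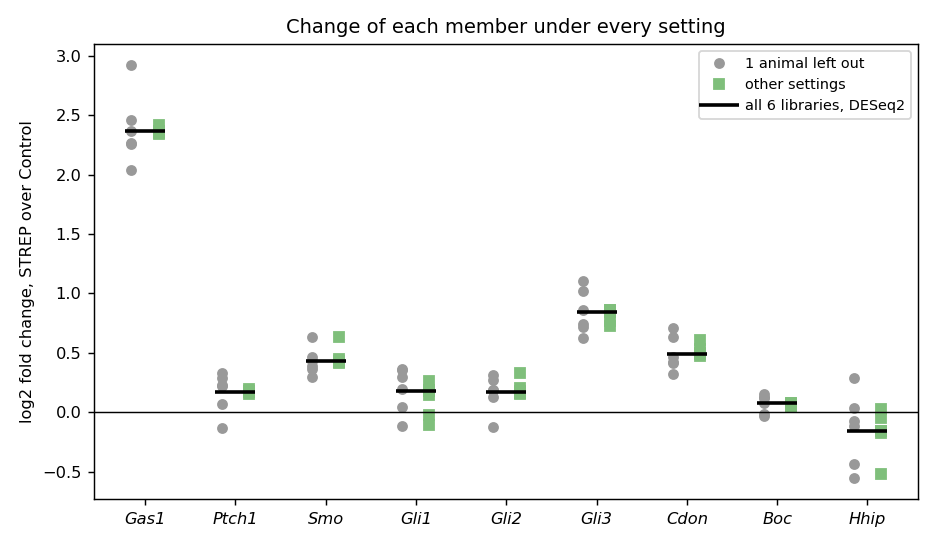
Log2 fold change of STREP over Control (vertical axis) of each of the 9 genes with all 6 libraries in DESeq2 (black line), with 1 animal left out (grey circles) and under other settings (green squares). Gas1 stays between 2.04 and 2.93, whereas Ptch1, Gli1, Gli2, Boc and Hhip lie on both sides of 0.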

How the data were processed

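RNA was sequenced from the vestibular epithelium of 6 rats by a full-length, oligo-dT primed protocol (SMARTseq2). Per the submitters' processing notes, the authors aligned reads with STAR 2.5.3a and quantified genes with RSEM 1.3.0; the study's methods name the Rnor6.0 genome. They deposited expected counts per gene, unscaled between libraries, in which 0 entries were not whole numbers. RSEM divides reads among similar genes, so genes with near-identical copies are uncertain. Groups came from the treatment labels, and replicates were numbered in order of deposition.

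All genes were fitted with DESeq2 1.42.0 in R 4.3.3 (median-of-ratios size factors, group as factor, Wald test, Benjamini-Hochberg adjustment, independent filtering at 0.05). Alternatives were edgeR 4.0.16 quasi-likelihood tests, other scalings, a filter of 10 counts in 3 samples, sex as a covariate, males alone, thinning to the smallest library and leaving out each animal. The procedure was tested on simulated data. The members and lists were chosen with earlier results of these data known. From each list, called genes and the 3 with the highest mean were named, with called fibroblast, HC and supporting cell markers and the 5 genes most like Gas1 by each measure; others are said to be named after their values were seen. Gpc5, Foxf2, Gfra1, Gas5, Dct and Pecam1 had no row under these symbols and are not analysed here, and 1 further gene of the pathway is not reported here. The labels put all libraries in 1 batch. P-values measure the spread between 3 animals a group.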

Additional observations from a re-analysis of the deposited data

How the results depend on the processing

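Gas1 kept its direction under every alternative run, with a log2 fold change from 2.04 to 2.93 over the fits that left out 1 animal. Gas1 was chosen for this rise and its groups did not overlap. No reversal could therefore be looked for, and the range is a description. The number of called genes was 264 with edgeR and a count filter, 295 with edgeR and no filter and 309 with library totals as size factors, against 527, and from 424 to 517 with 1 animal left out. Called members other than Gas1 numbered 0, and 1 (Smo) among males alone, with a range of 0 to 1 over the omissions. The wider hedgehog list had 2 called, 0 with either edgeR fit or with library totals and 1 among males alone, with a range of 0 to 3. The growth arrest list had 1 called and 2 among males alone, with a range of 1 to 2. The causes were not tested. GDNF family genes had 0 called throughout.

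Some values of uncalled genes changed sign. Among males alone these were Gli1 (-0.11), Disp1 (-0.11) and Gas2 (-0.22), after thinning Gli1 (-0.025) and Gpc3 (-0.049), with library totals Gpc3 (-0.015), and with sex as a covariate Hhip (0.031) and Gfra2 (0.0065). Over the omissions Ptch1 ran from -0.14 to 0.33, Gli1 from -0.12 to 0.36, Gli2 from -0.12 to 0.31, Boc from -0.030 to 0.15, Hhip from -0.56 to 0.29, Ihh from -4.31 to 1.85, Disp1 from -0.13 to 0.28, Hhat from -0.48 to 0.030, Gpc3 from -0.11 to 0.15, Gfra2 from -0.44 to 0.23, Gas2 from -0.27 to 0.31, Heg1 from -0.18 to 0.46, Parp1 from -0.12 to 0.050, Traf3 from -0.15 to 0.080, Rreb1 from -0.088 to 0.18 and LOC100294508 from -0.056 to 0.13. No gene listed here was called with all animals. Among values of single genes under other settings, 367 kept direction and call, 17 lost the call, 2 gained it and 8 changed sign; with 1 animal left out these were 214, 17, 7 and 26. Gli1, Gli3 and Hhip had few counts, which limits what could be seen. No paired analysis was run, since Control and STREP libraries came from different animals and the labels link none of them. The titles of STREP replicates 1 and 2 share a leading code, and what it stands for is not given.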
